A study of Mus musculus with 12 samples.

Results

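S1 tumorspheres without a targeted knockout are the subject here, described by the absolute levels of their genes. S1 is a gastric cancer cell line established from a tumor of a ChetPS mouse, a conditional model with the alleles Cdh1 F/+, Trp53 F/F and Smad4 F/F, so the control cells carry the same background lesions as every other group. The series holds 12 libraries in 4 genotype groups, and the 3 libraries whose genotype is labelled Control, named Con, Con_1 and Con_2 by the submitters, were the members. The other 9 libraries, of Rasa1, Nf2 and double knockout cells, entered no comparison. All cells expressed Cas9 and were used as pools and not as single clones, and the control pools carried a non-targeting guide or an intact plasmid backbone. Which control library had which of these is not given in the sources used here. The cells were grown as spheres in low-attachment wells in medium with epidermal growth factor, B-27 and N-2, or in a commercial tumorsphere medium, although the cell type label reads monolayer. The study calls its replicates technical ones, so the spread between the 3 libraries may be technical.

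The stomach lining is renewed from stem cells that give rise to pit cells with surface mucins, mucous neck cells, acid-secreting parietal cells, pepsinogen-secreting chief cells and hormone-secreting endocrine cells. After injury, gland cells can turn into a mucous form called spasmolytic polypeptide-expressing metaplasia (SPEM), and gastric tumors may take on intestinal programs under Cdx factors. Epithelial cells are held together by E-cadherin and keratin filaments, whereas mesenchymal cells use vimentin and make a fibrillar matrix. Each gene is given in TPM, a level per transcript length with the same sum in every library, in the order Con, Con_1 and Con_2.

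Total RNA was sequenced after depletion of ribosomal RNA, and the tables list 18926 genes. The lowest count of any gene in any of the 12 tables was 1, so that every listed gene has reads in every library, and genes outside these rows were not analysed here. Total counts were 95340850 in Con, 69091487 in Con_1 and 43818139 in Con_2. Con stood apart from the other control libraries although it was the deepest. Across the 13318 genes with a mean of at least 1 TPM, the median absolute difference of log2(TPM + 1) was 0.24 between Con_1 and Con_2, 0.31 between Con and Con_1 and 0.46 between Con and Con_2. Pearson's r of log2(TPM + 1) over the same genes, which share length and composition in all libraries, was 0.983, 0.959 and 0.928 for these pairs. The median gene was lower in Con than in the mean of the others by a log2 difference of -0.27 on deposited TPM, but by RLE size factors (median of ratios) on counts it was higher by 0.17. Differences between libraries are therefore on deposited TPM unless another scale is named. By RLE-scaled counts Con was the lowest library in 4561 of the 13318 genes, against 8313 on deposited TPM. No pair was a duplicate, since the median chi-square of the counts per gene was 6.89 for Con_1 and Con_2 and higher for the other pairs, against 0.455 for sampling noise.

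The 5 most abundant RNAs were small structural RNAs of the cell, led by Rn7s1 and Rn7s2. Both encode 7SL RNA, the RNA scaffold of the signal recognition particle that directs new proteins to the endoplasmic reticulum. The transcripts in the GENCODE annotation are identical over all 300 bases, so a read cannot be assigned to one copy and only the sum of both is a measurement. Rn7s1 was listed at 175428, 170963 and 153727 TPM and Rn7s2 at 158518, 164966 and 153504 TPM. Rn7sk, which holds the elongation factor P-TEFb inactive, had 101283, 95568 and 75806 TPM and was lowest in Con_2. Rpph1, the RNA of ribonuclease P, had 47428, 31275 and 30435 TPM and was highest in Con. Rmrp, the RNA of ribonuclease MRP, had 13353, 11311 and 10592 TPM. These short RNAs weigh much more in TPM than in reads because TPM divides by length.

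Accordingly, the biotypes differed between the measures. Protein-coding genes held 49.0% ± 2.55 of TPM (SD, n = 3) but 82.5% ± 1.13 of counts. The scRNA class, which consists almost wholly of the 7SL copies, held 32.6% ± 1.56 of TPM and 6.97% ± 1.36 of counts. The snRNA class held 9.20% ± 1.31 of TPM, most of it Rn7sk. Long non-coding RNAs showed the opposite weighting, with 1.14% ± 0.462 of TPM and 4.92% ± 2.37 of counts. Their share of counts was 2.20% in Con, 6.01% in Con_1 and 6.54% in Con_2, with Con far below the others. Ribosomal RNA rows, mostly the mitochondrial mt-Rnr2, held 0.457%, 1.60% and 1.57% of TPM. Of the 13983 protein-coding genes, 10904 (78.0%) were at 1 TPM or more in every library, as were 64.4% of all 18926 genes, 346 of 2247 lncRNA genes (15.4%), 493 of 1612 pseudogenes (30.6%) and 64 of 261 miRNA genes (24.5%).

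**Figure D1:**
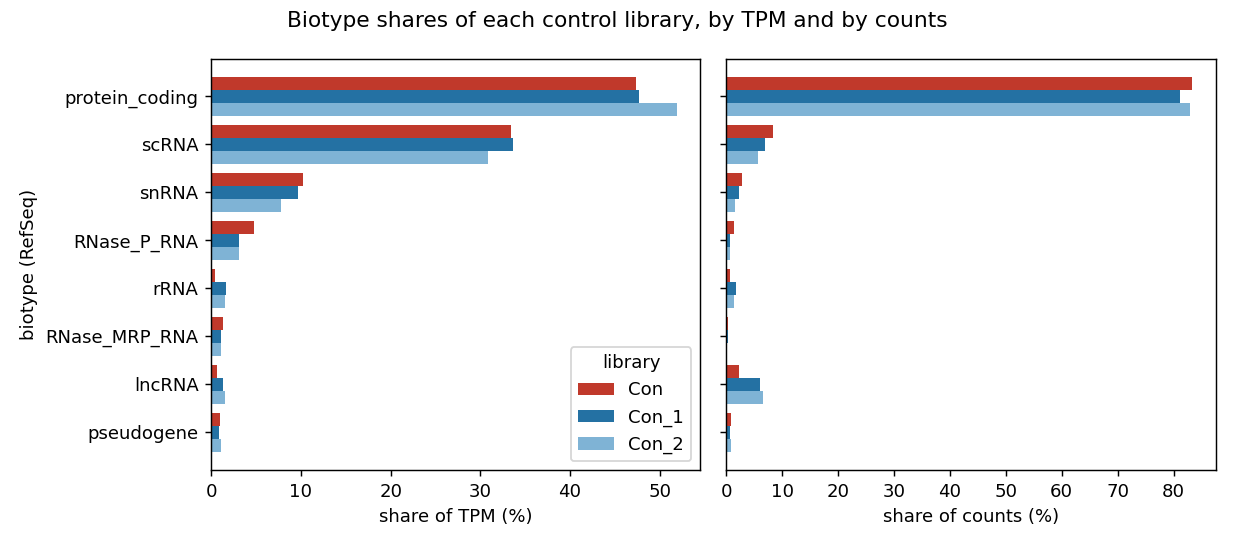
Share of each RefSeq biotype in the 3 control libraries, as percent of TPM (left) and percent of counts (right), for the 8 biotypes with the most TPM; each bar is 1 library. Protein-coding genes hold 49.0% of TPM on average but 82.5% of counts, and the scRNA class holds 32.6% of TPM but 6.97% of counts.

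Each biotype had a leading gene. Among long non-coding RNAs this was Malat1, a nuclear RNA of speckles, at 2549, 7064 and 8399.6 TPM, lowest in Con. Neat1, the scaffold of paraspeckles, had 150.2, 1338 and 1656 TPM, and Xist, which silences an X chromosome, had 10.5, 76.2 and 127 TPM. All 3 nuclear RNAs were lower in Con by both scales. The mitochondrial ribosomal RNA mt-Rnr2 had 4399, 14776 and 14256 TPM, and among transfer RNAs TrnS1, also mitochondrial, led at 1548, 1505 and 2261 TPM. Gas5, a snoRNA host gene, ran the other way at 325, 209 and 149 TPM. The leading small nucleolar RNA was Snora73a at 667, 531 and 786 TPM, which lies within the host gene Snhg3 at 34.9, 31.1 and 27.3 TPM. Among guide RNAs LOC115487906 led at 632, 461 and 473 TPM. It lies within the span of Gm22442, which was listed at the same values, so the same reads may stand under both. The telomerase RNA Terc had 9.22, 4.63 and 8.22 TPM. Gm13394 led the pseudogenes at 189, 432 and 558 TPM and Gm1821 the transcribed pseudogenes at 243, 247 and 368 TPM; pseudogenes share sequence with their parent genes, so these values are uncertain.

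The leading microRNA gene was Mir3064 at 146, 167 and 214 TPM. Its hairpin of 67 bases lies on chromosome 11 at 106782693 to 106782759 (GRCm38.p6, minus strand), within the span of Ddx5, a DEAD-box RNA helicase gene at 304, 446 and 507 TPM. Both genes were lowest in Con and highest in Con_2 on deposited TPM, although for Mir3064 Con was not lowest by RLE-scaled counts. Reads of the host transcript over the hairpin cannot be told apart from the precursor in a total RNA library, which does not measure the mature forms. The hairpin and its mature forms are shown from RefSeq because Mir3064 was the highest microRNA row, with the seed (bases 2 to 8) of the mature forms in capitals.
Mir3064 hairpin: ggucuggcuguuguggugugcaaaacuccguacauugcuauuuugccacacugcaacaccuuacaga
mmu-miR-3064-5p: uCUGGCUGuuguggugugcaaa
mmu-miR-3064-3p: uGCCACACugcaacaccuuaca

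**Figure D2:**
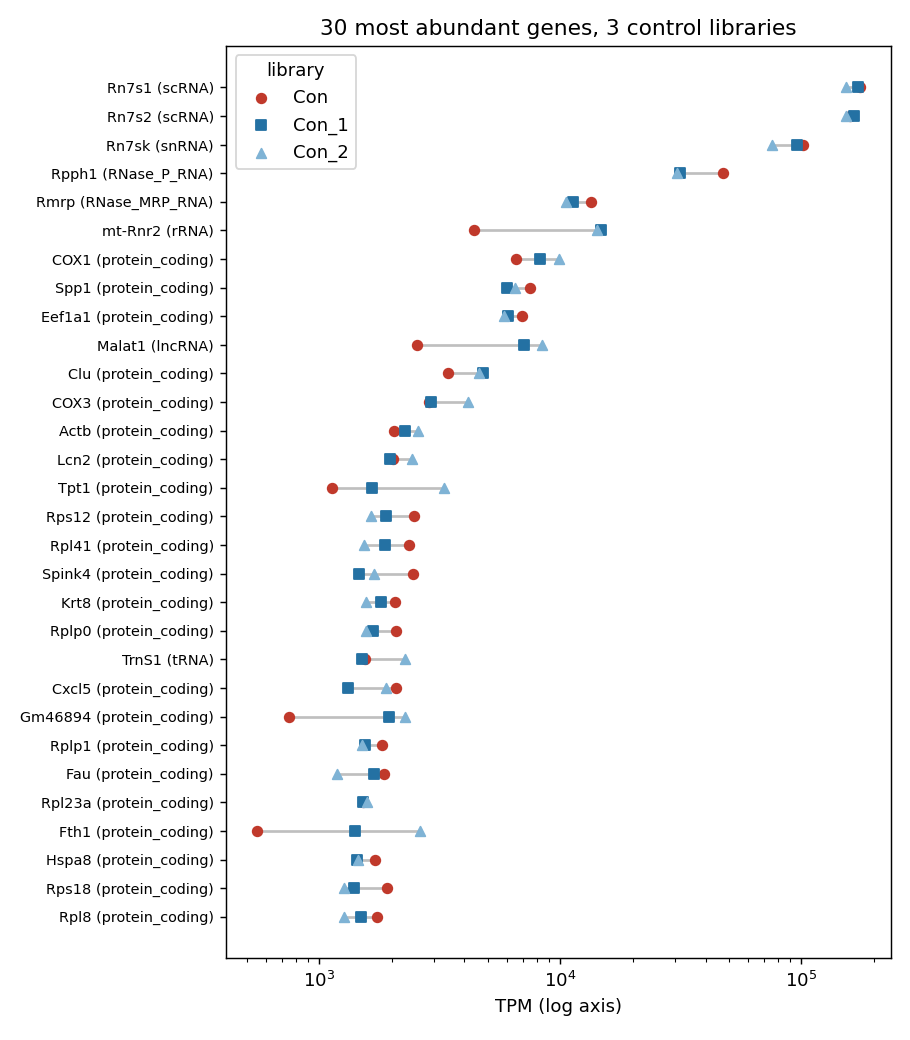
TPM (log axis) of the 30 genes with the highest mean, with 1 symbol for each control library and a grey line from the lowest to the highest. The structural RNAs from Rn7s1 to Rmrp lie above 10000 TPM in every library, while mt-Rnr2, Malat1, Gm46894 and Fth1 have their lowest value in Con.

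Among protein-coding genes the highest was COX1, the mitochondrial subunit of cytochrome c oxidase, at 6567, 8202 and 9831 TPM. Spp1, the secreted matrix phosphoprotein osteopontin, followed at 7503, 5987 and 6489 TPM and was the highest protein-coding gene of the nuclear genome. Eef1a1, the translation elongation factor, had 6925, 6058 and 5818 TPM, and Clu, the extracellular chaperone clusterin, 3408, 4780.1 and 4589 TPM. Lcn2, the iron-siderophore binding lipocalin of inflamed epithelium, was at 2134 ± 245 TPM (SD, n = 3). Spink4, a secreted protease inhibitor known from goblet cells, had 2455, 1459 and 1686 TPM and was highest in Con. Cxcl5, a neutrophil attractant, reached 2075, 1313 and 1883 TPM. Secreted products thus took 5 of the 20 highest places (Spp1, Clu, Lcn2, Spink4 and Cxcl5).

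Components of ribosomes and mitochondria filled much of the remainder. Of the 20 highest protein-coding genes, 5 encode ribosomal proteins by their symbols and 2 are on the mitochondrial genome; among the 100 highest, 47 and 3 did so. The ribosomal protein genes, 81 in all, made up 14.9%, 12.3% and 10.9% of protein-coding TPM, a share that was highest in Con. Actb, cytoskeletal actin, had 2047, 2268 and 2559 TPM, and Hspa8, the constitutive heat shock chaperone, 1707, 1428 and 1451 TPM. Wide spreads were found in Tpt1, the translationally controlled tumor protein, at 1128, 1659 and 3299 TPM and in Fth1, the ferritin heavy chain, at 550.0, 1412 and 2628 TPM. In both, Con was lowest and Con_2 highest. Rpl23a, a ribosomal protein gene, varied least among the 20, at 1535 ± 32.6 TPM (SD, n = 3). The predicted gene Gm46894 had 751, 1946 and 2264 TPM. The 20 most abundant genes of any biotype held 54.8%, 54.0% and 49.8% of TPM in the 3 libraries, but 20.9%, 22.6% and 20.5% of counts.

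The mitochondrial genome was unevenly spread between libraries. All genes on this chromosome summed to 1.72% of TPM in Con, 3.19% in Con_1 and 3.86% in Con_2. Of 13 protein-coding members, 11 had a range of at least 2-fold and 7 of at least 4-fold, against 21.3% and 3.25% of the 13318 genes tested. In ND4, a complex I subunit, the values were 17.3, 133 and 418 TPM, and in CYTB, of complex III, 76.0, 306 and 756 TPM. COX3 and COX1 changed least in proportion, with 2841, 2904 and 4157 TPM for COX3. Con was at least 2-fold below both other libraries in 7 of the 13 genes, against 9.85% of all genes tested, and in 6 of 13 by RLE-scaled counts, against 5.17%.

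The keratin pattern was that of simple epithelium. Krt8 and Krt18, partner keratins of single-layered epithelia, had 1809 ± 251 TPM (SD, n = 3) and 1229.5 ± 129 TPM (SD, n = 3), and Krt19 had 1061 ± 24.4 TPM (SD, n = 3). By library Krt8 was at 2065, 1799 and 1564 TPM, highest in Con and lowest in Con_2. Krt7 followed at 49.1, 81.3 and 64.7 TPM. Krt20, a keratin of differentiated surface cells, was lower at 1.32, 10.1 and 14.4 TPM, and Krt23 reached 0.769, 2.06 and 2.34 TPM. Across all 18926 genes the shares at 1, 10 and 100 TPM or more in every library were 64.4%, 34.3% and 3.34%. Of the 13983 protein-coding genes, 10904 (78.0%), 6187 and 598 were at these levels. The lists that follow name genes for proteins, so the protein-coding numbers are their closer background. In bulk RNA, fewer cells of a type and less RNA per cell cannot be told apart. Of 6 keratins, 5 were at 1 or more, 4 at 10 or more and 3 at 100 or more, and without Con 6 were at 1 or more.

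Genes of squamous epithelium, which lines the mouse forestomach, were mostly low. Of 21 such genes 12 were listed, and 6 of these reached 1 TPM in every library. Sprr1a, a cornified envelope protein, was highest at 63.6, 121 and 85.3 TPM, and Perp, a p53-responsive desmosomal membrane protein, had 34.0, 30.9 and 44.0 TPM. The basal keratin Krt14 had 0.870, 5.90 and 4.91 TPM and the basal regulator Trp63 0.227, 0.227 and 0.789 TPM. Krt5, Krt6a and Dsg3 were not analysed here.

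Junction genes were broadly present. Of 34, 29 were listed, with 26 at 1 TPM or more and 16 at 10 or more in every library (20 without Con). The median of the listed members was 22.1 TPM, above 69.4% of protein-coding genes. Cdh1, E-cadherin, led at 99.8, 167 and 232 TPM, and Con was lowest. F11r, the tight junction molecule JAM-A, had 98.8, 92.3 and 86.3 TPM, and Jup, plakoglobin, 71.3, 82.0 and 80.6 TPM. Epcam had 36.0, 50.7 and 56.6 TPM. Muc1, a transmembrane mucin, was at 9.45, 26.4 and 37.5 TPM, with Con at least 2-fold below both others. The claudins Cldn4 and Cldn18, of gut and stomach epithelia, stayed below 1 TPM in every library, at 0.0528, 0.0460 and 0.307 TPM and 0.0818, 0.117 and 0.169 TPM. Cldn7, Rab25, St14 and Prss8 were not analysed here.

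Epithelial regulators were led by Ehf, an ETS factor of epithelia, at 222 ± 19.6 TPM (SD, n = 3). Elf3, a related factor, had 26.4, 54.0 and 55.2 TPM, and Foxa2, a pioneer factor of endoderm, 46.0, 41.9 and 39.6 TPM. Klf4 and Klf5, Krüppel-like factors of gut epithelium, had 11.7, 26.4 and 38.3 TPM and 11.4, 25.2 and 33.8 TPM. Esrp2, an epithelial splicing regulator, was at 8.20, 14.9 and 13.4 TPM. Grhl2 was at 0.330, 0.931 and 1.28 TPM, Foxa1 at 0.174, 0.391 and 0.857 TPM and Ovol1 at 0.0345, 0.0113 and 0.168 TPM. Of 11 listed, 8 were at 1 TPM or more in every library, and the median of 12.2 TPM was above 52.8% of protein-coding genes.

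Some mesenchymal genes were at high levels, but the list as a whole was not. Vim, the mesenchymal intermediate filament vimentin, was at 687 ± 106 TPM (SD, n = 3), above 99.4% of protein-coding genes by mean. Fn1, fibronectin, had 188, 758 and 985 TPM, and Con was far below the other libraries by both scales. S100a4, a calcium-binding protein of motile cells, had 237, 311 and 316 TPM, and Sparc, a matrix glycoprotein, 119, 142 and 128 TPM. Cdh2, N-cadherin, had 14.2, 16.1 and 20.2 TPM, at a lower level than Cdh1. The transcription factors that drive epithelial-mesenchymal transition were lower: Twist2 was at 18.3, 19.7 and 21.3 TPM, Zeb1 at 5.23, 8.97 and 10.9 TPM and Zeb2 at 3.94, 9.34 and 13.0 TPM. Snai1 had 0.446, 1.46 and 2.52 TPM and Snai2 1.16, 2.35 and 3.44 TPM, and Tagln, a smooth muscle gene, was at or below 0.0364 TPM. Twist1, Tgfbi and Postn were not analysed here. Of 21 listed, 14 were at 1 TPM or more in every library and 19 without Con, and the median of 8.77 TPM was above 44.9% of protein-coding genes.

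The genes of fibroblasts and stroma had the largest share of members far lower in Con among the lists examined. Of 21, 15 were listed, and 7 were at 1 TPM or more in every library, but 10 without Con. Col6a1, a microfibrillar collagen, was at 560.0, 440.3 and 397 TPM, highest in Con. Col3a1, a fibrillar collagen, was at 8.21, 224 and 209 TPM, and Col5a1, a collagen of the same fibrils, at 2.45, 14.0 and 15.9 TPM. Pdgfrb had 0.420, 5.41 and 5.10 TPM and Col1a1 0.224, 3.14 and 6.40 TPM, while Col1a2, the partner chain of type I collagen, was at or below 0.176 TPM. Of the 9 genes with a mean of at least 1 TPM, Con was at least 2-fold below both other libraries in 7, by deposited TPM and by RLE-scaled counts alike, where 9.85% and 5.17% of all genes tested were so on these scales. The summed level of the 15 genes was 723, 954 and 929.7 TPM, and Col6a1 was the highest of them in each library. The part of stromal cells in the differences between libraries was not tested, and the shares of all genes were not matched for transcript length.

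Other non-epithelial cell types had few listed markers. Of 18 immune genes, 13 were not analysed here and only Cd52 and Cd68 had a mean over 1 TPM among the others, at 6.93, 13.0 and 18.4 TPM and 5.29, 10.0 and 11.6 TPM. Ptprc, the pan-leukocyte antigen CD45, had 0.0308, 0.155 and 0.171 TPM. Of 12 endothelial genes 6 were listed, led by Flt1, a VEGF receptor, at 8.54, 21.5 and 27.9 TPM, while Pecam1 was at 0.241, 0.232 and 0.472 TPM and Kdr at 0.0477, 0.0647 and 0.255 TPM. Of 11 erythroid and liver genes 3 were listed, with Alb, albumin, at 3.93, 2.39 and 3.31 TPM. Of 18 genes of other organs 4 were listed, led by Upk1b, a uroplakin, at 32.3, 33.6 and 32.7 TPM. All 16 housekeeping genes were at 10 TPM or more in every library, and Gapdh among them was at 189.8, 376 and 442 TPM, lowest in Con on deposited TPM.

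**Figure D3:**
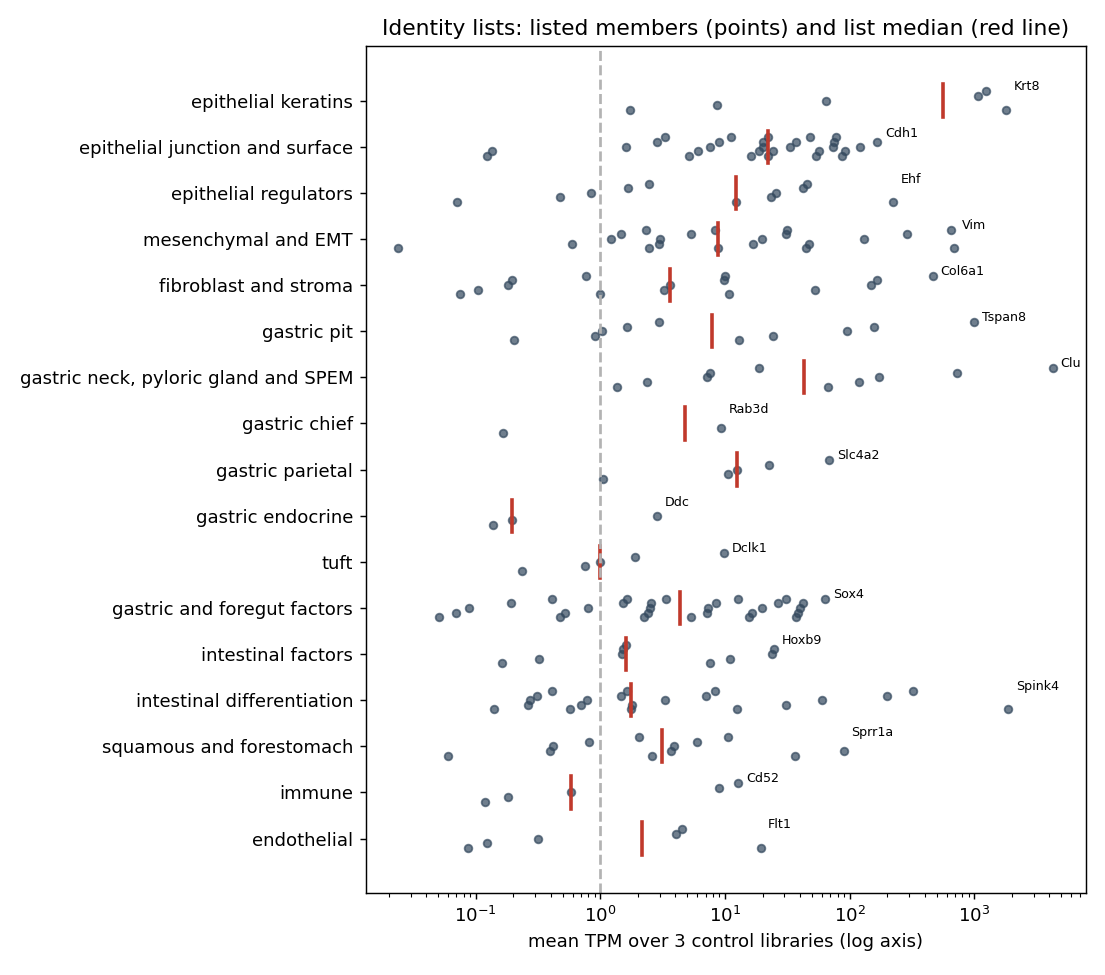
Mean TPM over the 3 control libraries (log axis) of the listed members of each identity list (points), with the median of the list as a red line, the highest gene named, and 1 TPM as a dashed line. Keratin, neck and pyloric and junction genes lie to the right, and the medians of the endocrine and immune lists lie below 1 TPM.

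Gastric pit cell genes were divided. Tspan8, a tetraspanin, was at 1253, 828 and 917 TPM, Sult1c2, a sulfotransferase, at 206, 134 and 127 TPM, and Vsig1, a stomach junction protein, at 92.1, 88.4 and 105 TPM. The secreted products that define pit cells were at 2.69 TPM or less: Tff1 had 0.282, 1.91 and 2.69 TPM and Muc5ac 0.429, 0.998 and 1.29 TPM. Ctse, cathepsin E, had 0.403, 1.31 and 1.36 TPM. In all 3, Con was the lowest library. Gkn1, Gkn2 and Gkn3, the gastrokines, were not analysed here. Of 10 listed genes, 6 were at 1 TPM or more in every library and 8 without Con, and the median was 7.90 TPM, above 42.1% of protein-coding genes.

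Of 14 genes tied to mucous neck cells, pyloric glands and SPEM 10 were listed. These were higher as a list, with a median of 43.0 TPM, above 84.8% of protein-coding genes. Members that were not listed do not enter the median of this or any other list. Clu led, followed by Dmbt1, a secreted scavenger receptor protein of mucosa, at 155, 978 and 1031 TPM. Con was lowest there by a wide margin, whereas Con_1 and Con_2 were close. Cd44, the hyaluronan receptor that marks SPEM, had 68.5, 171 and 274 TPM, Wfdc2 117, 105 and 135 TPM and Glipr1 83.2, 60.5 and 58.0 TPM. Tff2, the peptide for which SPEM is named, was at 0.158, 2.03 and 1.86 TPM. Muc6 and Pgc were not analysed here, and Aqp5, a pyloric stem cell marker, had 1.64, 3.26 and 2.23 TPM.

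Few genes of mature acid- and enzyme-secreting cells were listed. Of 12 parietal cell genes 5 were listed, with 4 at 1 TPM or more and 2 at 10 or more in every library. Their median was 12.5 TPM, above 53.7% of protein-coding genes. Atp4a, the proton pump subunit, was at 0.945, 1.04 and 1.16 TPM, and the broadly used exchanger Slc4a2 at 62.3, 69.1 and 74.9 TPM led the list. Of 8 chief cell genes 2 were listed, Rab3d at 8.12, 9.57 and 10.4 TPM and Bhlha15 at 0.0395, 0.256 and 0.200 TPM. Endocrine genes had 3 of 14 listed, 1 of them at 1 TPM or more in every library, and Syp, synaptophysin, was at 0.131, 0.263 and 0.191 TPM. Tuft cell genes had 5 of 12 listed, led by Dclk1 at 2.13, 10.9 and 16.3 TPM. Chga, Gast, Sst, Atp4b and Trpm5 were not analysed here.

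Stem and progenitor genes were common among those measured: 19 of 21 listed were at 1 TPM or more and 13 at 10 or more in every library, with a median of 38.1 TPM. Cd24a had 515, 616 and 765 TPM, Anxa1 522, 538 and 607 TPM and Ly6a, the fetal-type antigen Sca-1, 221, 353 and 410.3 TPM. Lgr5, the receptor of antral and intestinal stem cells, was at 4.07, 6.58 and 11.4 TPM, and its relative Lgr4 at 30.2, 37.0 and 47.0 TPM. Sox9 had 4.53, 19.5 and 40.4 TPM and Myc 6.14, 23.5 and 41.9 TPM, and in both Con was at least 2-fold below both others by both scales. Con was lowest in 19 of the 20 tested members on deposited TPM but in 8 by RLE-scaled counts. Over all 13318 genes tested, it was lowest in 8313 (62.4%) and in 4561 on these scales. The median difference of Con from the other libraries over the 20 members changed sign, from -0.46 to 0.06 on the log2 scale, by RLE-scaled counts.

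Of 36 transcription factors of stomach and foregut 30 were listed, with 20 at 1 TPM or more in every library and 8 below 1 TPM in every library. Their median was 4.38 TPM, above 31.4% of protein-coding genes. Hnf4a, a factor of gut epithelium, was at 38.9, 37.4 and 43.7 TPM, Gata6, an endoderm factor, at 17.0, 26.3 and 36.9 TPM, and Pdx1, a factor of the antrum and duodenum, at 17.4, 17.4 and 14.3 TPM. Sox2, a factor of foregut and stomach, was at 0.0792, 0.118 and 0.379 TPM, and Foxq1, which supports mucin production in pit cells, at 10.8, 14.8 and 20.9 TPM. Onecut2 had 8.88, 36.6 and 65.0 TPM and Hhex 25.6, 39.7 and 50.9 TPM. Barx1, Gata5 and Nkx6-3 were not analysed here.

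Cdx2, the intestinal master regulator, was nearly the same in all libraries on deposited TPM, at 10.8, 10.9 and 11.1. Hoxb9 and Hoxb7, posterior Hox genes, had 25.7, 23.1 and 25.8 TPM and 25.5, 21.5 and 24.3 TPM. Vdr, the vitamin D receptor, had 0.415, 1.67 and 2.73 TPM. Of 9 listed intestinal factors, 5 were at 1 TPM or more in every library and 7 without Con, and the median was 1.60 TPM. Cdx1 and Atoh1 were not analysed here.

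Products of intestinal cells were present only in part. Beside Spink4, Lgals2 had 442, 279 and 237 TPM and Lgals4 159, 225 and 209.8 TPM, both galectins of gut epithelium, and Muc13, a transmembrane mucin, 15.6, 88.2 and 76.6 TPM. Vil1, villin of the brush border, was at 22.8, 35.4 and 34.3 TPM and Cdh17, the liver-intestine cadherin, at 5.96, 15.1 and 16.5 TPM. Muc2, the gel-forming mucin of goblet cells, was at 0.0299, 0.302 and 0.593 TPM, and Tff3, the goblet cell trefoil peptide, at 0.162, 2.60 and 1.65 TPM. Of 46 genes 21 were listed, and 12 were at 1 TPM or more in every library, with a median of 1.77 TPM. Fabp1, Sis and Alpi were not analysed here.

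The tumor genotype and targeted genes were read in every library. Cdh1 had 99.8, 167 and 232 TPM, Trp53 2.40, 5.18 and 7.81 TPM and Smad4 2.51, 4.51 and 7.68 TPM, with Con lowest in each. These are levels over the whole gene and do not check which exons the conditional alleles lost. The knockout targets of the study, untouched here, were at 14.2, 22.9 and 29.1 TPM for Rasa1, a Ras GTPase-activating protein, and 14.9, 21.3 and 22.5 TPM for Nf2, the tumor suppressor merlin. Cdkn2a, a locus known to rise when p53 is lost, had 65.9, 56.6 and 52.3 TPM, and Cdkn1a, a p53 target, 2.73, 7.65 and 11.6 TPM. In all but Cdkn2a and Mdm2, a negative regulator of p53 at 26.8, 25.3 and 28.6 TPM, Con was the lowest library on deposited TPM, and for Nf2 it was not by RLE-scaled counts.

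Proliferation genes were all present in the control spheres, and mucosal defence genes were at higher levels. Of 27 proliferation genes all 27 were at 1 TPM or more in every library, where 78.0% of protein-coding genes were so. Their median was 16.0 TPM, above 60.4% of protein-coding genes. Pcna was at 99.3 ± 8.31 TPM (SD, n = 3) and Mki67 at 8.97, 18.1 and 21.0 TPM. Among 19 listed mucosal defence and acute phase genes, 17 were at 1 TPM or more, and the median was 147 TPM, above 96.6% of protein-coding genes. C3, the central complement component, had 1046, 1097 and 1200.4 TPM, Saa3, serum amyloid A3, 873, 944 and 1059 TPM and Hp, haptoglobin, 657, 668 and 559 TPM. Nos2, inducible nitric oxide synthase, was lower at 16.3, 33.7 and 45.9 TPM. Interferon response genes were modest, with a median of 3.63 TPM over 22, led by Irf1 at 65.5, 63.1 and 62.4 TPM. The lipid synthesis list had a median of 29.3 TPM over 24 genes, led by Scd2, a desaturase, at 344, 395 and 527 TPM. Of 19 listed glycolytic and hypoxia genes, 17 were at 10 TPM or more in every library, with Pkm, pyruvate kinase, at 1288, 1271 and 968 TPM, Aldoa at 1059, 997 and 851 TPM and Vegfa at 112, 134 and 152 TPM. The 19 genes of the ATF4 and unfolded protein list had a median of 44.0 TPM, with the chaperone Hspa5 at 385, 349.7 and 344 TPM.

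Immediate early and matrix genes were also often lower in Con. Immediate early genes are switched on within minutes by growth factors or stress. Fos had 44.4, 165 and 177 TPM, Egr1 2.46, 41.3 and 60.0 TPM and Fosb 0.326, 25.9 and 35.4 TPM, while Junb stayed closer at 233, 329.9 and 275 TPM. Of 28 tested, Con was the lowest in 27 (19 by RLE-scaled counts), against 62.4% of all genes tested (4561 of 13318 by RLE-scaled counts). It was at least 2-fold below both others in 12 (10 by RLE-scaled counts), against 9.85% of all genes tested (5.17% by RLE-scaled counts). The YAP/TEAD list, which holds Hippo pathway targets and also pathway members such as Yap1, Wwtr1 and Tead1, had 21 of 22 genes at 1 TPM or more. Ccn2, a matricellular target, was at 77.2, 226 and 282 TPM, Ankrd1 at 64.9, 92.5 and 97.3 TPM and Ccn1 at 9.75, 43.9 and 50.3 TPM. Con was at least 2-fold below both other libraries in 5 of 21 tested genes of this list (3 by RLE-scaled counts). Matrix genes other than Spp1 included Timp1, an inhibitor of matrix proteases, at 43.0, 45.2 and 44.2 TPM and Lama5, a basement membrane laminin, at 67.1, 140.3 and 151 TPM. In 11 of 26 tested, and in 4 of 26 by RLE-scaled counts, Con was at least 2-fold below both others.

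The spread between libraries was assessed in the 13318 genes with a mean of at least 1 TPM, and no test was made of a single library against the others. The highest library was at least 2-fold over the lowest in 2835 genes (21.3%) and at least 4-fold in 433 (3.25%). Without Con, 166 genes had a 2-fold range. Con was the lowest library in 8313 of the 13318 genes (62.4%) and Con_1 lay in the middle in 8870 (66.6%). Con was at least 2-fold below both others in 1312 genes (9.85%) and above both in 17 (0.128%). By RLE-scaled counts this split was 689 below (5.17%) and 120 above (0.901%). Con_2 was at least 2-fold above both others in 124 genes (0.931%) and below in 10 (0.0751%), and Con_1 was above in 4 (0.03%) and below in 1 (0.00751%). The median coefficient of variation over the 3 libraries was 20.8%, and counting error alone would give 2.35%. It was 28.2% for genes of 1 to 10 TPM and 16.0% for those of 100 to 1000 TPM.

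Among protein-coding genes with a mean of at least 10 TPM, the 10 lowest in Con by the widest gap included matrix and immediate early genes. Beside Col3a1, Fosb and Egr1 they held Prl2c3, a proliferin, at 1.34, 35.7 and 39.5 TPM and its near-identical relative Prl2c2 at 1.76, 28.3 and 37.8 TPM, whose reads may be shared. Col5a3 had 0.412, 13.6 and 16.1 TPM, Col15a1 1.83, 26.9 and 33.0 TPM and Ccn5 1.43, 22.8 and 22.2 TPM. Pigr, which carries antibodies across epithelium, was at 2.72, 30.1 and 37.5 TPM, and Zfp36, an RNA decay factor induced by growth signals, at 3.39, 35.5 and 48.8 TPM. All 10 stayed lower in Con by RLE-scaled counts. By the same limits, genes highest in Con included Cpn1, a carboxypeptidase subunit, at 41.8, 14.1 and 12.6 TPM, Cxcl15, a chemokine, at 27.9, 9.04 and 9.82 TPM and Ddit3, the stress factor CHOP, at 54.7, 22.5 and 15.0 TPM. Fabp5, a fatty acid binding protein, was at 256, 115 and 81.4 TPM and Ccl20, a chemokine, at 129, 66.0 and 62.4 TPM.

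Con_2 stood out for mitochondrial ND6 at 15.1, 16.6 and 64.0 TPM, and for Phlda1, a target of growth factor signals, at 8.53, 21.1 and 51.1 TPM and S100a11 at 27.8, 97.4 and 218 TPM. It was lowest for Mrpl48 at 19.7, 16.6 and 5.61 TPM and Ptms, parathymosin, at 158, 126 and 47.7 TPM. For Con_1 the gaps among protein-coding genes with a mean of at least 10 TPM were at most 0.62 on the log2 scale. On deposited TPM, Cc2d1b was highest in Con_1 at 14.3, 22.6 and 12.8 TPM and Rpl22l1 lowest at 248, 125 and 192 TPM. By RLE-scaled counts Cc2d1b in Con was above the mean of the other libraries, by 0.36 on the log2 scale. Several genes scarcely moved: Rpl4 was at 759.8, 750.2 and 754 TPM, Tubb5, a tubulin, at 337, 343 and 338 TPM, Eef2, an elongation factor, at 1293, 1311 and 1289 TPM and Lamp1, a lysosomal membrane protein, at 362, 354 and 359 TPM. Gc, the vitamin D binding protein, was equally steady at 346, 352 and 341 TPM. On RLE-scaled counts these steady genes all lay above the other libraries in Con.

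**Figure D4:**
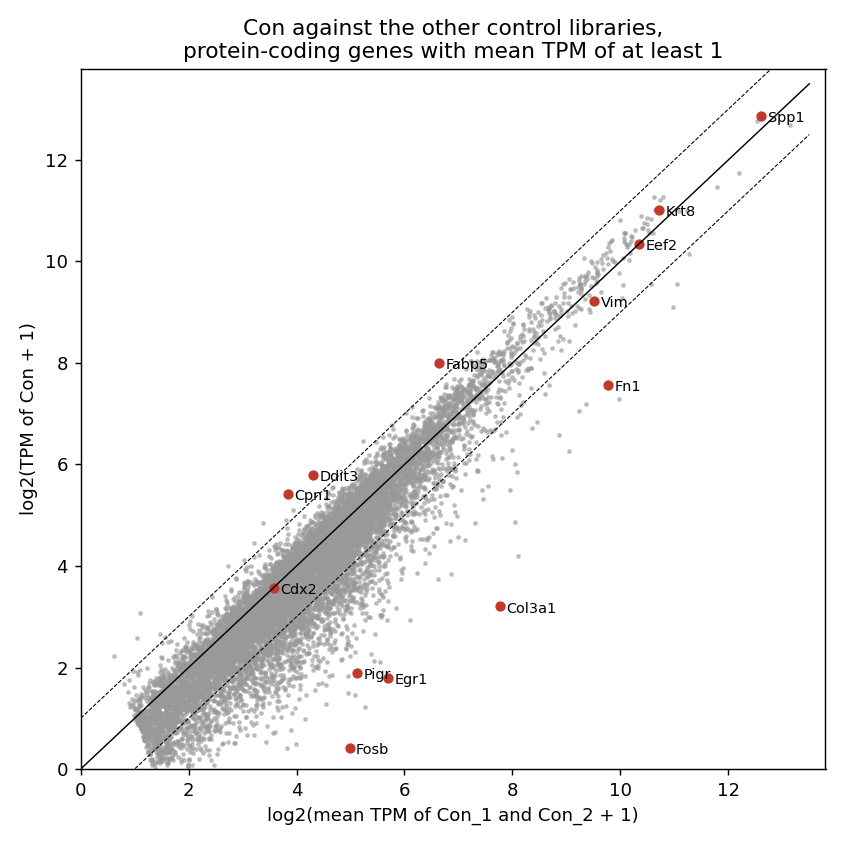
Log2(TPM + 1) of Con against log2(mean TPM of Con_1 and Con_2 + 1) for protein-coding genes with a mean of at least 1 TPM; each grey point is 1 gene, the solid line marks equal values and the dashed lines 2-fold differences. More genes fall below the lower dashed line than above the upper one, with Col3a1, Fosb and Egr1 far below and Krt8, Cdx2 and Eef2 near the solid line.

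The difference between libraries moved with transcript length. The longest GENCODE transcript was found for 11280 of 11497 protein-coding genes with a mean of at least 1 TPM (98.1%), and these were ranked in 5 equal groups. In the shortest, with a median of 1439 bases, Con differed from the mean of the other libraries by a median of 0.11 on the log2 scale. In the longest, with a median of 6798 bases, the difference was -0.70. The intermediate groups had -0.12, -0.23 and -0.37. Con was at least 2-fold below both others in 3.50% of the shortest and 22.6% of the longest genes. Con_2 minus Con_1 also rose from 0.03 to 0.31 from the shortest to the longest. Among genes lower in Con, the longest transcript had 8315 bases in Fn1, 6272 in Dmbt1, 5564 in Col3a1 and 4484 in Egr1. It had 3782 bases in Fosb and 2108 in Fos. These genes were picked and do not stand for all genes low in Con. The part of length in the spread was not tested.

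**Figure D5:**
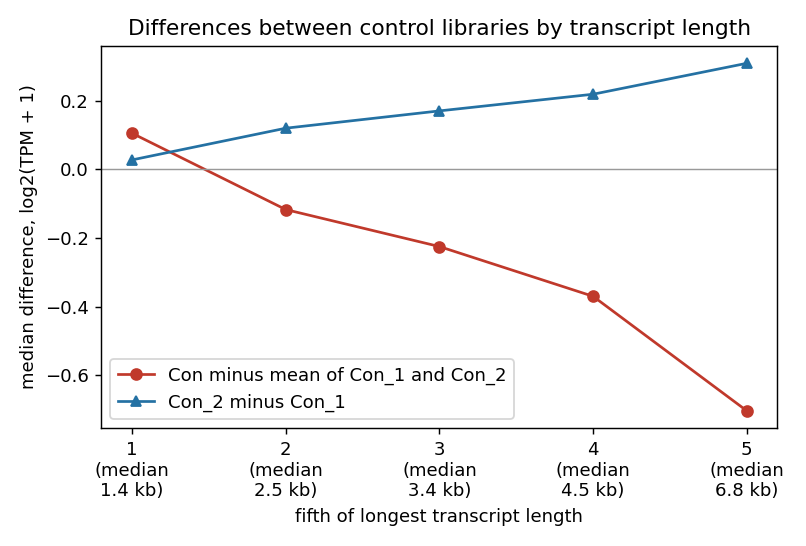
Median difference of log2(TPM + 1) in 5 equal groups of protein-coding genes ranked by their longest transcript, for Con minus the mean of Con_1 and Con_2 (red) and Con_2 minus Con_1 (blue). The red line falls from 0.11 to -0.70, and the blue line rises from 0.03 to 0.31.

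The region before the start of transcription was read for the highest identity and secretory genes. RefSeq holds windows of 250 bases before to 50 after a start for 11103 of the 13983 protein-coding genes listed. The 100 bases before the first listed start are shown for Spp1, Krt8, Lcn2 and Vim, because these genes have the highest mean TPM in the matrix, keratin, defence and mesenchymal lists (Fn1 was above Vim in Con_1 and Con_2), with TATAAA on the gene's strand in capitals. Spp1 lies at chr5:104435011-104435110 (plus strand), Krt8 at chr15:102004343-102004442 (minus strand), Lcn2 at chr2:32387740-32387839 (minus strand) and Vim at chr2:13574211-13574310 (plus strand), all in GRCm38.p6.
Spp1: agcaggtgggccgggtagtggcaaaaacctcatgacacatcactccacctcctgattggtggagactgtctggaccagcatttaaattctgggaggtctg
Krt8: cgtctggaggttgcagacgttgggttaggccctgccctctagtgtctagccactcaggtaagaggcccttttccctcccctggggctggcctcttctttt
Lcn2: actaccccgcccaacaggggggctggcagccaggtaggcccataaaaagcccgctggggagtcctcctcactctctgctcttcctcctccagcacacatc
Vim: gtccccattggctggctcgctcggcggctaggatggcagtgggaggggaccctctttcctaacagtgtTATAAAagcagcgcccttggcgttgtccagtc
Of these 4 stretches only that of Vim had the motif, beginning 32 bases before the start. Over all 11103 genes, 1.87% had TATAAA on the gene's strand beginning 20 to 40 bases before a start, where a TATA box is found. The share was 3.15% (58 of 1844) of genes below 1 TPM, 1.73% (58 of 3352) at 1 to 10 TPM, 1.18% (63 of 5319) at 10 to 100 TPM and 5.05% (28 of 555) at 100 to 1000 TPM. At 1000 TPM or more 1 of 33 genes had it, and the 15 ribosomal protein genes among them had none. Anywhere in the window and on either strand, the motif (TATAAA or TTTATA) was in 9.61% of all genes and in 11 of 33 at 1000 TPM or more. A match is a description of the letters and not a measured binding site.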

How the data were processed

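Gene tables of 3 control libraries were analysed, with groups taken from the genotype labels, and no statistical test was run because only 1 group was described. Per the labels and the submitters' processing notes, reads of stranded, rRNA-depleted total RNA were trimmed (Trimmomatic 0.38), aligned to mm10 (HISAT 2.1.0, SAMtools 1.9) and quantified with StringTie 2.1.3b against RefSeq. The authors deposited raw counts, FPKM (per transcript length and mapped reads) and TPM (FPKM rescaled to a fixed sum). Whether counting used strand is not given in the sources used here. TPM were used as deposited; spread used log2(TPM + 1), with a pseudocount of 1 and a mean of at least 1 TPM. FPKM, counts divided by RLE size factors and TPM rescaled over protein-coding genes were alternatives. Values were computed in Python 3.11 with pandas and checked on simulated counts.

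Gene positions are from RefSeq (GRCm38.p6), matched for 18878 of 18926 genes, and transcript lengths from GENCODE. The members and the 33 gene lists (648 distinct genes, some in several lists) were chosen with earlier results of these data known. Named genes were the 20 highest protein-coding genes, non-coding genes among the 30 highest, the highest gene of each biotype, up to 6 highest members of each list with defining members below 1 TPM, and the genes with the widest and smallest gaps between libraries; genes in the text beyond these were chosen after their values were seen. Depth was 43818139 to 95340850 counts per library. With 3 libraries per value the SD is itself imprecise, and it may hold technical spread only. Some items withheld for evaluation are not reported here.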

Additional observations from a re-analysis of the deposited data

How the results depend on the processing

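No paired analysis was possible because the results come from 1 group and no test. The 20 most abundant genes held 52.9% of TPM on average, 21.3% of counts, and the 20 highest protein-coding genes held 11.7% of protein-coding TPM; protein-coding genes held 49.0% of TPM but 82.5% of counts. The number of genes with a 2-fold range, 2835, fell to 1332 with a mean of at least 10 TPM, where fewer genes were tested, and was 166 without Con, 2736 without Con_1 and 1401 without Con_2. The number with a 4-fold range, 433, was 163 by RLE-scaled counts, 1050 with a pseudocount of 0.1 and 251 with a mean of at least 10 TPM; it was 11 without Con, 426 without Con_1 and 107 without Con_2. The count of genes at 1 TPM or more in every library stayed within 11586 to 13352 over all alternatives run. Rescaling over protein-coding genes raised every level in proportion, which moved the medians of all 33 lists and the levels of 538 of 550 genes by more than their spread. Leaving out a library lowered the mean level of 68 of 550 genes by more than 1.5 times, 7 without Con, 1 without Con_1 and 60 without Con_2. Leaving out the lowest library cannot raise a mean by more than 1.5 times. Genes with their lowest value in Con could therefore not count as moved without Con, and the split does not compare the weight of the libraries. Cpn1 was at 13.3 TPM and Ddit3 at 18.7 TPM without Con, and Fth1 at 981 TPM without Con_2.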
